A study of Mus musculus with 24 samples.

Results

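Intron rows are the counts of reads that fall in the introns of a gene model, and they are described here for the genes of mouse back skin outside the core circadian clock. Members were the intron rows with a summed count of at least 1200 over the 24 libraries, each matched to the exon row of the same gene model. Of 31872 intron rows in the deposited table, 20623 held at least 1 count and 11770 reached the threshold. Keeping 1 model per gene symbol left out 196 rows, and 19 core clock genes were set aside, which left 11555 members. The members held 98.1% of all intron counts. Just inside the threshold lay Ppp1r3b and Mefv with 1200 intron counts each and Traip with 1202, and just outside it lay 1110032A03Rik, Plekhb1 and Qpct with 1199 each. The members were chosen by the summed intron count alone, and neither the time of day nor the feeding regime entered the rule. All 11555 members were tested in introns and 11301 were tested in exons, since 254 had too few exon counts.

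The mice were wild-type males of the inbred strain C57BL/6NCrl, about 8 weeks old, with whole back skin in telogen, the resting phase of the hair cycle. The light cycle was 12 h light to 12 h dark, and all mice had regular chow for 4 h a day during the last 18 to 21 days, and no group fed without restriction was analysed here. ED mice had food from ZT0 to ZT4, MD mice from ZT5 to ZT9 and EN mice from ZT12 to ZT16, where ZT counts hours since lights on. Every group was sampled 8 times, every 4 h between ZT0 and ZT28, with 1 library of total RNA per time that pooled 2 to 4 mice. Because no group had more than 1 pool at a time, p-values measure the spread of these pools around the fitted model. In whole skin, fewer cells of a type and less RNA per cell cannot be told apart.

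A gene is first transcribed as a precursor that still holds its introns, and splicing removes them, usually within minutes. Intron reads in total RNA therefore follow ongoing transcription closely, whereas exon reads come mostly from mature mRNA and also depend on how long that mRNA lasts. A long-lived mRNA smooths and delays a rhythm in transcription, and a change in mRNA stability or splicing can move exon reads with no change in intron reads. Skin carries its own circadian clock and also follows feeding through insulin, glucocorticoids and nutrient sensing, which act largely on transcription. An intron row can also hold stable RNA: small nucleolar RNAs, which guide the chemical modification of ribosomal RNA, are cut out of introns and persist. In these data 254 members had the gene of a small nucleolar or Cajal body RNA inside them on the same strand, and these held 5.49% of the members' intron counts.

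The sequences below show both kinds of content. The member with the most intron counts was Snhg3, a non-coding host gene, with 1665541 intron counts against 2412 exon counts, or 691 intron counts per exon count. Its introns hold Snora73a (chr4:132352775-132352979, mm10, minus strand), and the ribosomal protein gene Rps3, with 675536 intron counts, holds Snord15a (chr7:99482785-99482932, minus strand). Both RNAs are printed from the reference transcripts, with capitals marking the ACA box of Snora73a and the C box TGATGA and D box CTGA of Snord15a, the elements by which the 2 classes of small nucleolar RNA are recognised.
Snora73a: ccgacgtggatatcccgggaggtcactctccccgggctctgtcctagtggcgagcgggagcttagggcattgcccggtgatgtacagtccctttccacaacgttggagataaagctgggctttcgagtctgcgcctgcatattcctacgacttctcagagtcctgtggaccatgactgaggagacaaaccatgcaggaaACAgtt
Snord15a: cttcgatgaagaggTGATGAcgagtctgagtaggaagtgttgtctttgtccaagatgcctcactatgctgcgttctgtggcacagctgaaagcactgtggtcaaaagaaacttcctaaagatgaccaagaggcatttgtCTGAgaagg
The other sequences are the 250 bases before 1 RefSeq start of each of 5 members whose intron rows changed after food, from the RefSeq promoter table of build GRCm38.p6, the same sequence as mm10. Fkbp5 (chr17:28486150-28486399, minus strand), Gsta3 (chr1:21240335-21240584, plus strand), Mylk4 (chr13:32783965-32784214, minus strand) and Slc38a4 (chr15:97055957-97056206, minus strand) had a called food response in introns and none in exons. Pnpla3 (chr15:84167566-84167815, plus strand) is shown beside them because both of its rows rose after food. The Fkbp5 window lies inside the gene as GENCODE draws it (to base 28517527), and the Slc38a4 window is 1 of 3 in the table. Capitals mark matches on either strand to CCAAT (the CCAAT box), CACGTG (the E-box), CACGNG (its looser carbohydrate-response form, which also matches every E-box), AGGTCA (a single site of the ROR element), GAANNTTC (the core of the heat shock element) and TGACGTCA (the cyclic AMP response element).
Fkbp5: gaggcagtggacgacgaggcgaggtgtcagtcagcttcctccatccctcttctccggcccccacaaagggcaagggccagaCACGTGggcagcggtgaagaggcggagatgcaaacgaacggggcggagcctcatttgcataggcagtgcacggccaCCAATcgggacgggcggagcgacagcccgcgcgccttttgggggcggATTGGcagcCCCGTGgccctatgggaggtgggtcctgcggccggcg
Gsta3: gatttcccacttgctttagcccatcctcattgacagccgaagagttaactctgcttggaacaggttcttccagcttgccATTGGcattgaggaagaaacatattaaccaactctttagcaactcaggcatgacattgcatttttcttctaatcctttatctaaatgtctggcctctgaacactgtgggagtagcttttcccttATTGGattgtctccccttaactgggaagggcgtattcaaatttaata
Mylk4: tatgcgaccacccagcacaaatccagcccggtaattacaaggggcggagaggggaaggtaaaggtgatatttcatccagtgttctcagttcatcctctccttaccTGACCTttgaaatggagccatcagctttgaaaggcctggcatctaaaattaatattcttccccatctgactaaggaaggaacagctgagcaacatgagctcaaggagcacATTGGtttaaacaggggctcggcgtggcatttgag
Slc38a4: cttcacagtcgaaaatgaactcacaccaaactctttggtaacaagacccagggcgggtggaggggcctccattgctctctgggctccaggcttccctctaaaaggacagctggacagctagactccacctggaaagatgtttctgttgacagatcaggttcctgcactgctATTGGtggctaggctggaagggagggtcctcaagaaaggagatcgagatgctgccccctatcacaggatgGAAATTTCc
Pnpla3: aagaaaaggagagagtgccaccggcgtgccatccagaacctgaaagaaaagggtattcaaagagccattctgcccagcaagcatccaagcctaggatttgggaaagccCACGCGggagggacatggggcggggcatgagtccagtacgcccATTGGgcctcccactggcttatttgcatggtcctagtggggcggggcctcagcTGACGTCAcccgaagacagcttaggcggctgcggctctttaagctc
These windows differ in what they hold. Fkbp5 has CCAAT boxes, an E-box and the looser E-box form, Gsta3 has CCAAT boxes only, Mylk4 a CCAAT box and a single ROR site, Slc38a4 a CCAAT box and a heat shock core, and Pnpla3 a CCAAT box, a looser E-box form and a cyclic AMP response element. CCAAT occurred in 34.5% of all 27025 promoters of this length, CACGNG in 23.7%, AGGTCA in 13.8%, GAANNTTC in 6.78%, CACGTG in 6.05% and TGACGTCA in 1.62%. A promoter was found for 8288 members. Among these, CCAAT occurred in 35.3%, CACGNG in 35.3%, AGGTCA in 9.81%, GAANNTTC in 4.79%, CACGTG in 8.45% and TGACGTCA in 2.64%.

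Intron counts per library lay between 7768854 and 17796013 and exon counts between 13222667 and 26316851. The intron share of sense counts ranged from 35.2% to 45.0%, and averaged 39.8% ± 2.97 for ED, 41.2% ± 2.27 for MD and 37.6% ± 1.08 for EN (SD, 8 libraries per group). It was 3.65 percentage points lower in EN than in MD, with EN higher at 1 of 8 times (exact permutation test over times, two-sided, p = 0.0156, Benjamini-Hochberg adjusted over 3 pairs 0.0469). EN against ED and MD against ED did not pass (adjusted p = 0.105 and 0.25 by the same exact test). All 6 markers of basal keratinocytes, all 5 of suprabasal keratinocytes and all 5 of fibroblasts were detected in exons. Skeletal muscle was also present: the summed exon level of 9 fast muscle markers lay between 24282 and 74968 CPM (counts scaled to the library total of their row type). The ED ZT24 and EN ZT0 pools stood apart by 6 markers of hair shaft and growing follicle, with summed exon levels of 907 and 2542 CPM against up to 65.7 CPM in the libraries after food and up to 62.2 in MD, and counts without these 2 pools are given where they differ by over 1.5 times.

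To ask how transcription followed feeding, the 7 libraries from 3 to 8 h past the opening of food ("after food") were set against the 9 from 19 to 24 h past it ("before food"), in 1 model with the feeding group and the time of day. Introns of 1118 members changed, 475 higher and 643 lower after food, against a background of 8.51% of all 14611 intron rows tested called in this comparison (3.65% higher and 4.86% lower). Exons of 603 members changed, 289 higher and 314 lower, against 4.83% of all 15704 exon rows tested (2.38% higher and 2.45% lower). Among the members called in introns, 1019 had the same sign in all 3 feeding groups. In 293 members both rows changed, in the same direction in all 293. The signs by group and the match of the 2 rows come from the same pools as the calls, so both are descriptions. The tests are edgeR quasi-likelihood F tests with Benjamini-Hochberg adjustment over all rows tested, at a threshold of 0.05. Scaling intron rows by the exon library sizes left 748 intron calls, 219 higher and 529 lower, so the balance of directions depended on the scaling. The intron count was 629 without ED ZT28, 639 without EN ZT8, 705 without MD ZT12, 735 without EN ZT12 and 738 without MD ZT4, and the exon count was 240 without ED ZT28, 245 without EN ZT20, 250 without EN ZT8, 278 without MD ZT12, 297 without EN ZT12, 324 without MD ZT4 and 328 without ED ZT20.

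**Figure D1:**
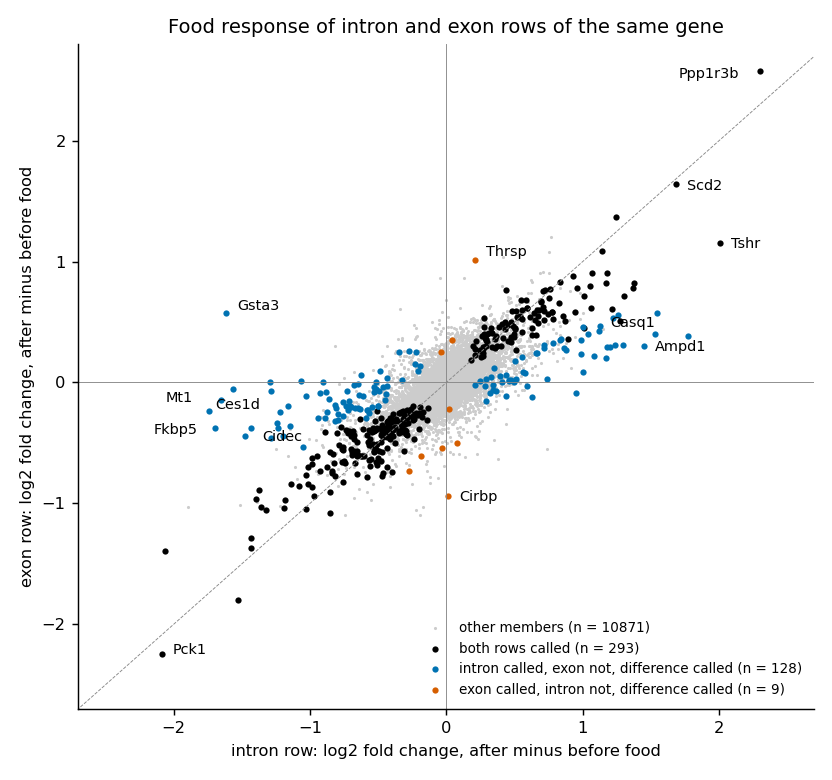
Log2 change after against before food in the exon row (vertical axis) and the intron row (horizontal axis) of the members tested in both. Black points are the 293 members called in both rows, blue the 128 called in introns only and orange the 9 called in exons only with the difference between rows also called, and grey the rest of the 11301.

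Members that changed strongly in both rows included enzymes of lipid and sugar metabolism. Scd2, a desaturase that makes monounsaturated fatty acids, had intron levels of 22.9, 26.8 and 35.7 CPM (lowest, median and highest) after food and of 4.62, 9.45 and 15.4 before food. Its exon levels were 166, 284 and 435 CPM after and 72.7, 87.3 and 115 before food. Neither row overlapped between the 2 classes of libraries: all 7 after food were above all 9 before food. The intron row of Scd2 rose by 1.69 ± 0.21 on the log2 scale (SE, edgeR adjusted p = 1.4e-05). Its exon row rose by 1.64 ± 0.18 (edgeR adjusted p = 6.5e-06). Food changes given with an SE are edgeR estimates, while the SE comes from a separate least squares fit to log2 CPM. Scd2 has near-identical copies of other Scd genes, and the treatment of reads matching several places is not stated in the sources read here. Ppp1r3b, which targets a phosphatase to glycogen and favours glycogen synthesis, had intron levels of 2.89, 11.3 and 20.4 CPM after and 0.878, 1.51 and 6.61 before food. These ranges overlapped, with the high median after food. Because its 1200 intron counts only just reached the threshold and came largely from libraries after food, its intron change is a description. Its exons, which the rule did not use, rose by 2.58 ± 0.30 on the log2 scale (edgeR adjusted p = 9.5e-06).

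In the opposite direction, Pck1, the rate-limiting enzyme of gluconeogenesis, had intron levels of 0.771, 4.26 and 7.57 CPM after and 2.93, 9.39 and 37.1 before food. Its exon levels were 11.8, 31.3 and 57.8 and 27.8, 131 and 263 CPM, so both rows were lower after food at the median and overlapped between classes. Pck1 introns fell by 2.09 ± 0.27 and exons by 2.25 ± 0.26 on the log2 scale (edgeR adjusted p = 2.1e-05 and 9.5e-06), and the 2 rows were not called different (adjusted p = 0.83). Tshr, the thyrotropin receptor, showed 24.504, 54.6 and 71.6 CPM in introns after and 8.00, 12.3 and 28.7 before food, with a small overlap of the classes. Its introns rose by 2.01 ± 0.34 and its exons by 1.16 ± 0.30 on the log2 scale (edgeR adjusted p = 0.00025 and 0.01).

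Introns and exons were then compared with each other in a joint model with the library as a block, which tests the difference between the 2 responses. The difference was called in 203 members, with exons above introns in 104 and below in 99, against a background of 1.61% of the 13689 rows tested in both (0.855% and 0.752%). Of these, 128 changed in introns with no call in exons (background 1.01%), 56 higher and 72 lower after food, and 26 of the 128 had an exon change of the opposite sign. Another 9 members were called in both rows and 57 in neither. For 675 members the intron row was called, the exon row was not and the difference was not, so a different response of the 2 rows was not shown for them. The count of 203 fell to 92 without EN ZT8, 111 without ED ZT28, 125 without MD ZT4, 126 without MD ZT8, 127 without EN ZT12 or MD ZT12, and 135 without EN ZT16. With intron rows on the exon scaling it was 114.

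**Figure D2:**
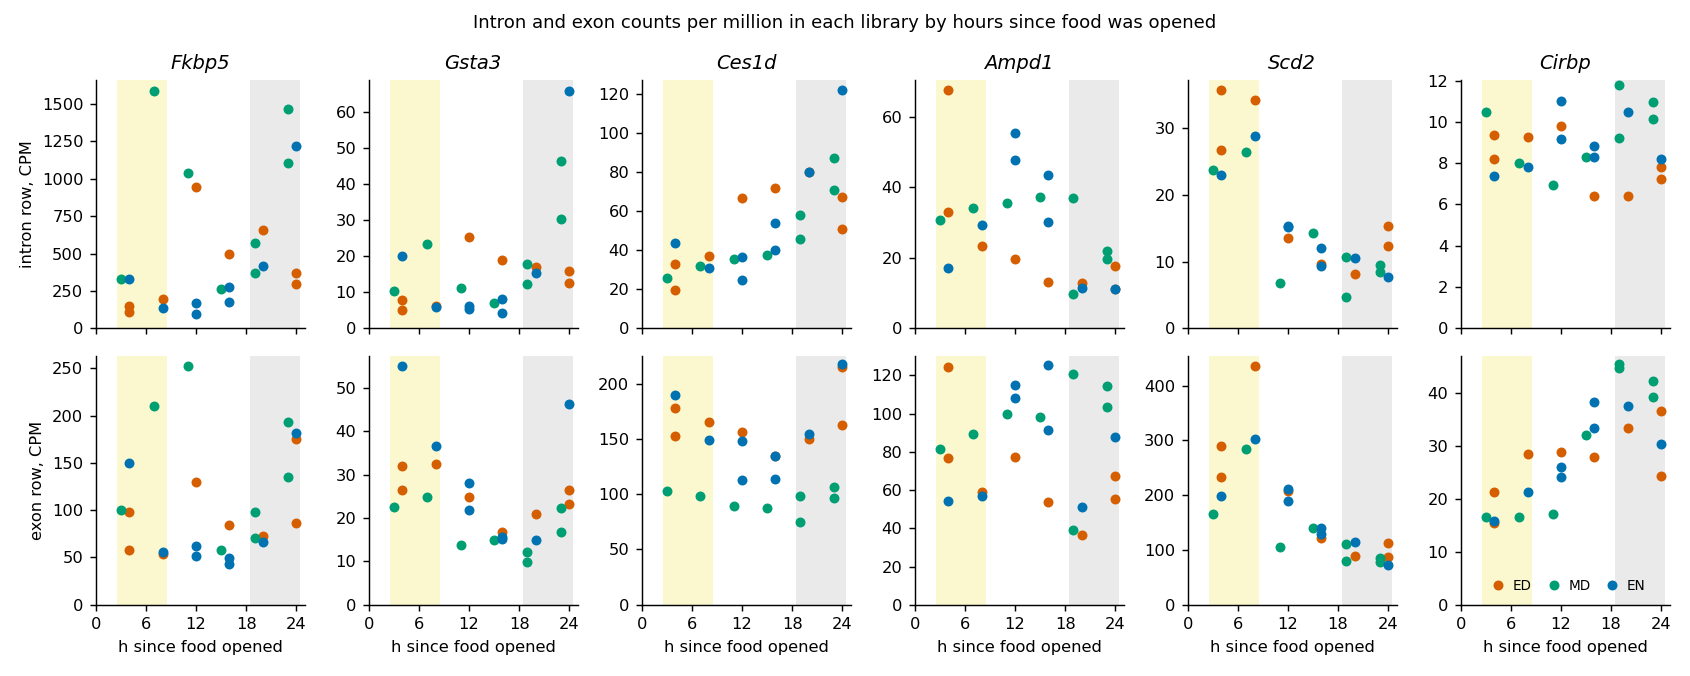
CPM in the intron row (top) and exon row (bottom) of 6 members against hours since food was opened, 1 point per library, coloured by feeding group. Yellow shading marks the 7 libraries after food and grey the 9 before food. Introns of Ces1d sit between 19.5 and 43.6 CPM after food and between 45.8 and 122 before it, with exon levels that overlap, whereas for Cirbp only the exon levels are low after food.

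The cases of a change in introns alone described next kept their intron call and the call of the difference whichever single library was left out. Ces1d, a carboxylesterase that hydrolyses lipids and xenobiotics (chr8:93166068-93197838, minus strand, with 29402 bases of intron), had intron levels of 19.5, 32.0 and 43.6 CPM after and 45.8, 70.9 and 122 before food. The exon levels were 98.1, 153 and 189 and 75.1, 149.8 and 218 CPM. Every library before food thus had more Ces1d intron signal than every library after food, while the exon ranges lay over each other. Ces1d introns fell by 1.56 ± 0.18 on the log2 scale (edgeR adjusted p = 7.3e-06), exons by 0.06 ± 0.12 (0.8), and the adjusted p of the difference was 5e-07. Over the day both rows of Ces1d were rhythmic (edgeR adjusted p = 0.0049 and 0.042), with a delay of the exon peak of 4.27 ± 0.86 h (SE) and an exon amplitude 0.296 times that of introns.

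Gsta3, a glutathione transferase of detoxification (chr1:21240589-21265661, plus strand), moved apart in its 2 rows. Its introns lay at 5.16, 7.73 and 23.5 CPM after and 12.2, 16.9 and 66.0 before food, and its exons at 22.7, 32.1 and 55.1 and 9.78, 20.9 and 46.4 CPM. Introns were lower after food in each of the 3 groups, by 1.25, 0.60 and 1.53 on the log2 scale in ED, MD and EN without the time term, and exons were higher in each. The intron row fell by 1.62 ± 0.27 on the log2 scale (edgeR adjusted p = 0.00025), the exon row had a change of 0.57 ± 0.24 that did not pass (0.1), and the difference had an adjusted p of 2.5e-08. Fkbp5, a co-chaperone of the glucocorticoid receptor and a classical target of it (chr17:28399094-28517527, minus strand), had 108, 199 and 1588 CPM in introns after and 294, 568.03 and 1470.1 before food. The highest library after food was MD ZT12, above every library before food, and the MD difference without the time term was -0.07 against -1.49 in ED and -1.75 in EN. Fkbp5 introns fell by 1.70 ± 0.26 on the log2 scale (edgeR adjusted p = 0.00012) with exons at -0.38 ± 0.27 (0.34) and an adjusted p of the difference of 0.001.

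Genes of fat cells were among those that fell in introns. Of 13 adipocyte markers, 5 fell and 1 rose in introns, and the others were not called. Cidec, a protein that fuses lipid droplets in adipocytes, had intron levels of 4.80, 10.96 and 13.3 CPM after and 12.7, 21.97 and 38.4 before food, against exon levels of 114, 158 and 255.7 and 102, 174 and 375 CPM. Its intron classes overlapped by little and its exon classes fully, and introns fell by 1.43 ± 0.14 on the log2 scale (edgeR adjusted p = 3.7e-06) with a called difference (0.00031). Slc7a10, a neutral amino acid transporter of fat cells and neurons, did not overlap in introns, with 9.02, 13.8 and 18.7 CPM after and 18.9, 28.4 and 42.0 before food. Slc7a10 introns fell by 1.22 ± 0.17 on the log2 scale (edgeR adjusted p = 0.00011; exons -0.24 ± 0.18, adjusted p = 0.37; difference 0.00019). The summed exon level of 6 adipocyte markers lay between 691 and 1415 CPM after (median 1343) and between 679 and 1979 CPM before food (median 1165.5), highest in EN ZT12. Their summed intron level lay between 204 and 340 CPM after (median 266) and between 250 and 433 CPM before food (median 287). The part of fat cell content in these results was not tested.

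Genes that rose in introns alone included transporters and muscle enzymes. Slc38a4, a transporter of neutral and cationic amino acids, had 14.6, 18.3 and 27.1 CPM in introns after and 8.11, 9.29 and 11.8 before food, with no overlap, and 12.0, 15.6 and 20.5 against 11.5, 13.7 and 24.506 CPM in exons. Its introns rose by 1.20 ± 0.22 on the log2 scale (edgeR adjusted p = 0.00069; exons 0.29 ± 0.17, adjusted p = 0.27; difference 0.0066). Ampd1, the AMP deaminase of skeletal muscle, had 17.1, 30.8 and 67.6 CPM in introns after and 9.86, 12.9 and 36.9 before food, with the highest value in ED ZT28. Ampd1 introns rose by 1.45 ± 0.30 on the log2 scale (edgeR adjusted p = 0.0015; exons 0.30 ± 0.24, adjusted p = 0.37; difference 2.4e-06). Ckmt2, the mitochondrial creatine kinase of striated muscle, rose in introns by 1.53 ± 0.30 on the log2 scale (edgeR adjusted p = 0.0018), with exons at 0.40 ± 0.18 (0.13) and the difference at 0.0024. Enpep, the aminopeptidase that cleaves angiotensin II, and Cpz, a carboxypeptidase of the extracellular matrix, rose in introns by 1.17 ± 0.19 and 0.95 ± 0.21 (edgeR adjusted p = 0.00047 and 0.0026), with exons at 0.20 ± 0.13 and -0.09 ± 0.11. With limma on the difference of log2 CPM in each library, the differences of Slc38a4 and Ckmt2 were not called (adjusted p = 0.062 and 0.063), and that of Ckmt2 was lost without the second day (edgeR adjusted p = 0.054). Mt1, a metal-binding metallothionein, fell in introns by 1.74 ± 0.32 (edgeR adjusted p = 0.00047), but the annotated exons of all its transcripts together leave 0 bases of intron, and Mt1 and Mt2 are near copies, so what this row counts is uncertain.

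The reverse pattern, a change in exons with no call in introns and a called difference, was found in 9 members, against a background of 0.0731% of the 13689 rows tested in both. Thrsp, Rnpep and Hnrnpc were higher in exons after food, and Cirbp, Zfand1, Camk4, Npr3, 2610015P09Rik and Thrap3 were lower. Cirbp, an RNA-binding protein induced by mild cold (chr10:80165985-80172786, plus strand), was the only one of the 9 that kept both its exon call and the call of the difference without any single library. Its exon levels were 15.4, 16.7 and 28.5 CPM after and 24.4, 37.5 and 45.5 before food, and its intron levels were 7.35, 8.21 and 10.5 and 6.41, 9.22 and 11.8 CPM. The exon row was low in the libraries after food in each feeding group, by 0.56, 1.36 and 0.87 on the log2 scale in ED, MD and EN, while the intron row differed by 0.32, -0.19 and -0.28. Cirbp exons fell by 0.94 ± 0.19 on the log2 scale (edgeR adjusted p = 0.0022) and introns changed by 0.01 ± 0.10 (0.96). The difference had an edgeR adjusted p of 0.00075. In a list of 2 cold-induced RNA-binding proteins, both fell in exons. The member other than Cirbp also fell in introns, though not in every fit that left out a single library.

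Thrsp, a regulator of fatty acid synthesis that follows carbohydrate feeding, had 135, 257 and 271 CPM in exons after and 51.1, 88.8 and 169 before food, and 8.80, 19.7 and 26.6 against 6.48, 11.1 and 32.1 CPM in introns. Both rows overlapped between the classes. Its exons rose by 1.01 ± 0.20 on the log2 scale (edgeR adjusted p = 0.0022), with introns at 0.21 ± 0.30 (0.68), and the difference (0.012) was lost without EN ZT12 or MD ZT12 (up to 0.071) and with limma on the difference of log2 CPM (0.092). Hnrnpc, a nuclear protein that binds precursor RNA, had exon levels of 95.6, 99.5 and 102 CPM after and 75.8, 83.0 and 95.3 before food, which did not overlap, and intron levels of 133, 146 and 153 and 135, 149 and 157 CPM. Its exons rose by 0.25 ± 0.06 on the log2 scale (edgeR adjusted p = 0.026; introns -0.04 ± 0.03), a call lost without ED ZT28, EN ZT12, EN ZT20, MD ZT12 or MD ZT4 (up to 0.095), and without the second day (0.091). For Rnpep, Zfand1, Camk4, Npr3, 2610015P09Rik and Thrap3 the difference was lost without at least 3 single libraries each, with adjusted p-values up to 0.175, 0.162, 0.0699, 0.111, 0.237 and 0.151. A further 301 members were called in exons and not in introns with no called difference.

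To describe these counts by pathway, lists of genes with known roles were read against all members. The median log2 change of all members was 0.011 in introns and -0.00099 in exons. Over all 11555 members, 9.68% were called in introns (475 higher, 643 lower), and of the 11301 tested in exons 289 were higher and 314 lower. Of 19 members of the glucocorticoid response, 17 fell in introns and 0 rose, and 10 fell in exons and 0 rose, with a median log2 change of -1.14 in introns and -0.67 in exons. Leaving out single libraries gave 16 to 18 falls in introns and 8 to 11 in exons. Besides Fkbp5, these were Zbtb16 and Klf9, transcription factors induced by the hormone, Tsc22d3, an anti-inflammatory leucine zipper protein, and Angptl4, an inhibitor of lipoprotein lipase. In MD the difference without the time term was 0.20 for Tsc22d3 introns and -0.05 for Zbtb16 introns, against -1.03 and -1.39 in ED and -1.36 and -1.41 in EN. Angptl4 had intron levels of 3.43, 6.09 and 16.5 CPM after and 13.1, 16.8 and 32.7 before food, overlapping in part, and fell by 1.43 in introns and 1.37 in exons on the log2 scale (edgeR adjusted p = 0.0006 and 0.00038). Klf9 fell by 0.88 and 0.70 (edgeR adjusted p = 1.4e-05 and 0.00056), and Zbtb16 introns by 1.38 (3.9e-05). Glul, glutamine synthetase, fell in introns by 1.15 (edgeR adjusted p = 2.1e-05) with exons at -0.36 (0.16) and a called difference (0.0015), and Mt1, Fkbp5 and Mt2 were the other 3 of the list with a called change in introns alone. Gpx3 and Dusp1 were the 2 members without an intron call. The 17 include the near copies Mt1 and Mt2, and what the Mt1 intron row counts is uncertain.

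**Figure D3:**
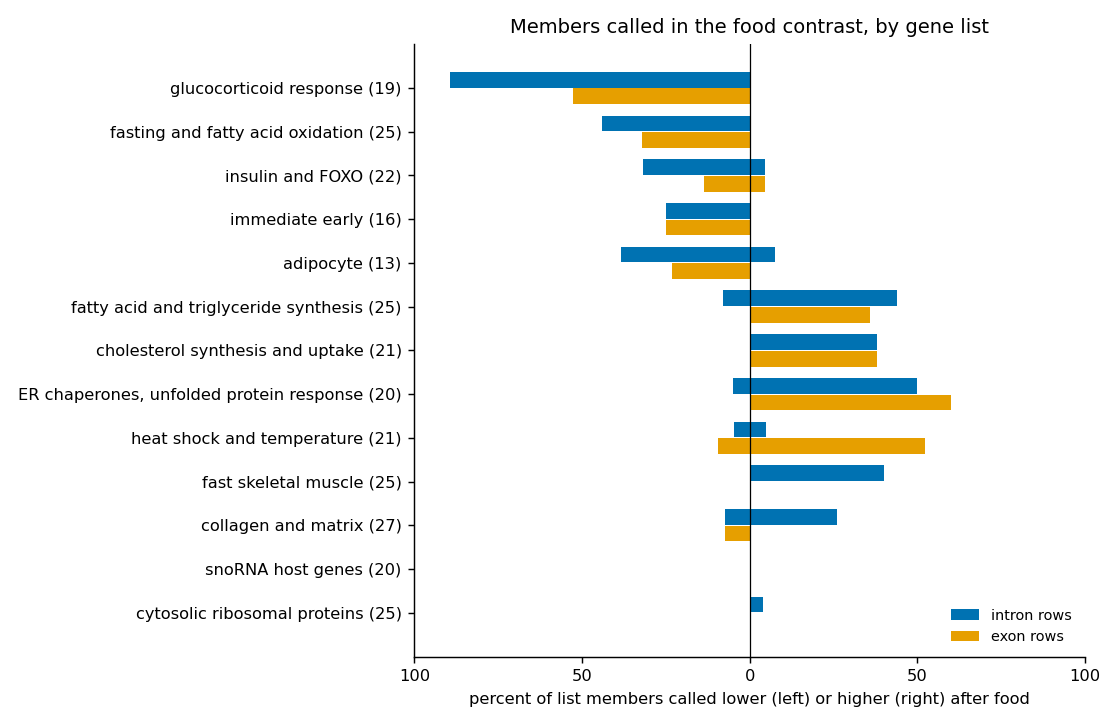
Percent of the members of 13 gene lists called higher or lower after food in introns (blue) and in exons (orange), bars starting at 0. The glucocorticoid list reaches 17 of 19 members lower in introns, the heat shock list has 11 of 21 members higher in exons and 1 in introns, and the fast muscle list has 10 of 25 higher in introns and 0 in exons.

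Genes of fatty acid and triglyceride synthesis are switched on by insulin and SREBP1 after a meal. Of 25 members 11 rose and 2 fell in introns, and 9 rose and 0 fell in exons, with median log2 changes of 0.28 and 0.23. Acly, which makes cytosolic acetyl-CoA, had intron levels of 229.9, 336 and 621 CPM after and 169, 199 and 282 before food, overlapping in part. Its exon levels of 692, 919 and 1204 and 412, 510.2 and 567 CPM did not overlap. Acly rose in both rows, by 0.93 and 0.88 on the log2 scale (edgeR adjusted p = 0.00065 and 0.00038). Acaca, acetyl-CoA carboxylase and the committed step of the pathway, rose in introns by 0.99 (edgeR adjusted p = 2.1e-05), while its exons stood at 0.24 (0.31) and the difference was called (0.00019). The 2 that fell in introns, Lpin1, a phosphatidate phosphatase also induced by fasting, and Acacb, the carboxylase that restrains fatty acid oxidation, fell by 0.65 and 0.33 (edgeR adjusted p = 0.00097 and 0.0065) with exons at -0.01 and 0.02. Cholesterol synthesis and uptake had 8 of 21 members higher in introns and 8 in exons, none lower. Those counts were lower without single libraries: 4 in introns without ED ZT20 or ED ZT28 and 5 without EN ZT8, MD ZT4 or MD ZT8, and 4 in exons without ED ZT20, ED ZT28, EN ZT8, EN ZT12, EN ZT16 or EN ZT20 and 5 without MD ZT4 or MD ZT12.

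Of 25 genes of fasting and fatty acid oxidation, 11 fell and 0 rose in introns and 8 fell and 0 rose in exons, and the others were not called. Cpt1a, which brings fatty acids into mitochondria, had 41.4, 52.4 and 76.2 CPM in introns after and 81.6, 96.7 and 108 before food, and 39.8, 53.5 and 72.2 and 82.9, 100.2 and 113 CPM in exons. Neither row of Cpt1a overlapped, and it fell by 0.85 and 0.91 on the log2 scale (edgeR adjusted p = 2.8e-05 and 1.3e-05). Txnip, which restrains glucose uptake, fell by 1.43 and 1.29 (edgeR adjusted p = 0.00016 and 0.00021). Of 22 members of insulin and FOXO signalling, 7 fell and 1 rose in introns, and 3 fell and 1 rose in exons, and the 7 became 3 without EN ZT12. Irs2, an insulin receptor substrate that FOXO factors induce, fell by 0.99 in introns and 0.86 in exons (edgeR adjusted p = 0.00096 and 0.0023). Of 13 adipocyte markers, 5 fell and 1 rose in introns, and 3 fell and 0 rose in exons.

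Of 20 chaperones and stress proteins of the endoplasmic reticulum, 10 rose and 1 fell (Herpud1) in introns and 12 rose and 0 fell in exons, including Calr, a calcium-binding chaperone, with 0.71 and 0.62 on the log2 scale (edgeR adjusted p = 0.0032 and 0.0026). The 10 became 5 without ED ZT28 or EN ZT8, 6 without ED ZT20 or MD ZT12, and 5 with intron rows on the exon scaling. Hspa5, the main chaperone of that compartment, had exon levels of 315, 428 and 638 CPM after and 189, 258 and 308 before food with no overlap, and rose by 0.83 in exons (edgeR adjusted p = 0.00038). Its intron change of 0.63 did not pass (0.089). In the heat shock list, cytosolic chaperones and cold-induced proteins together, 11 of 21 members rose and 2 fell in exons, but 1 rose and 1 fell in introns. Fkbp4, a co-chaperone of steroid receptors, had exon levels of 135, 145 and 172 CPM after and 81.5, 101 and 123 before food with no overlap, and intron levels of 14.7, 16.4 and 18.2 and 8.08, 12.5 and 21.4 CPM. Fkbp4 exons rose by 0.60 (edgeR adjusted p = 0.00021) and its intron change of 0.49 did not pass (0.081). The difference between rows was called for 1 of the 21, Cirbp, so for the other 20 a different response was not shown, and the median changes were 0.19 in introns and 0.32 in exons. The 11 became 6 without ED ZT28 and 7 without EN ZT12, EN ZT20 or MD ZT12, and the 1 intron rise became 6 without ED ZT24.

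Of 25 fast muscle genes, 10 rose and 0 fell in introns and none was called in exons, with medians of 0.52 and 0.35. The count became 16 in introns and 4 in exons without MD ZT0. Casq1, the calcium store protein of fast fibres, had intron levels of 14.2, 17.5 and 33.2 CPM after and 7.81, 9.81 and 16.1 before food, with a small overlap, and exon levels of 184, 253 and 406 and 148, 217 and 327 CPM. Casq1 introns rose by 1.12 on the log2 scale (edgeR adjusted p = 0.00091; exons 0.43, adjusted p = 0.088; difference 0.00011), and Ryr1, Myh2, Cacna1s and Myl1 also had called differences; of these 5 calls of a difference, 3 were left without EN ZT12 or MD ZT12. The summed exon level of 9 fast muscle markers overlapped between the classes, at 30962 to 68672 CPM after and 24282 to 74968 CPM before food, and its part in these results was not tested. Of 27 genes of collagen and matrix, 7 rose and 2 fell in introns, and 0 rose and 2 fell in exons, with medians of 0.29 and -0.05. Col15a1, a basement membrane collagen, had intron levels of 135, 175 and 270.4 CPM after and 59.99, 114 and 160.0 before food, overlapping in part, and rose in introns by 1.08 (edgeR adjusted p = 0.00019; exons 0.22, adjusted p = 0.25; difference 0.00031). Fn1, Col1a2, Col5a1 and Col5a3 were also called in introns alone. The 7 became 3 without MD ZT12 and 4 with intron rows on the exon scaling.

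No food response in introns was called in 14 mitosis genes, 22 genes of nucleotide excision repair or 20 hosts of small nucleolar RNAs. At the 9.68% called over all members, lists of this size hold few calls, so these zeros set no list apart. In introns 1 of 25 ribosomal protein genes was called higher, Rps2, chosen here after its value was seen (0.59, edgeR adjusted p = 0.045). Without ED ZT24, 4 of the 20 host genes and 4 of the 25 ribosomal protein genes were called higher in introns.

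A daily rhythm was tested with a 24 h cosine in each feeding group. Within a group each clock time lay at a fixed number of hours since food. A rhythm within a group therefore cannot tell time of day from the daily meal. The intron row of 305 members was rhythmic in at least 1 group, against a background of 2.39% of all 14611 intron rows tested, and the exon row of 293 members, against 2.64% of the 15704 exon rows. By group the intron calls were 50 in ED (background 0.452%), 99 in MD (0.842%) and 107 in EN (0.890%), and 13 members were called in all 3. The ED count ran from 14 (without ED ZT12) to 86 (without MD ZT8), the MD count from 42 (without MD ZT0) to 170 (without MD ZT24), the EN count from 27 (without EN ZT12) to 205 (without MD ZT8) and the exon count fell to 157 without EN ZT12. The total of 305 was sensitive to single libraries: 503 without MD ZT8, 153 without EN ZT12, 162 without ED ZT12, 168 without EN ZT20, 173 without EN ZT0, 175 without EN ZT16, 176 without EN ZT24, 177 without MD ZT28, 192 without EN ZT4 and 200 without EN ZT8. Without both pools with high hair follicle markers it was 164, with 25 in ED and 43 in EN. With intron rows on the exon scaling, ED alone had 1130 calls and EN had 51, so the number of rhythms in a group depended on the scaling. For comparison, 16 of the 19 clock genes set aside were rhythmic in introns.

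Peaks fell at different clock times in the groups. In ED, 29 of 50 rhythmic members peaked from ZT18 to ZT24, in MD 38 of 99 did, and in EN 43 of 107 peaked from ZT6 to ZT12. For members called in both groups of a pair, EN peaked later than MD by a median of 4.80 h (28 members, 0 earlier), MD earlier than ED by 5.25 h (18 members, 14 earlier) and EN earlier than ED by 2.49 h (18 members, 16 earlier), where each pair of groups shares libraries with the others. The difference of the intron rhythm itself was called in 46 members for MD against ED (background 0.445%), 11 for EN against ED (0.157%) and 26 for EN against MD (0.267%). Leaving out single libraries, these counts ran from 21 (without ED ZT12) to 126 (without MD ZT8), from 3 (without ED ZT20) to 39 (without MD ZT8) and from 9 (without EN ZT12) to 53 (without MD ZT24). With the sampling time as a block they were 62, 22 and 54, with DESeq2 226, 91 and 143, and EN against MD had 15 without ED ZT24 and EN ZT0.

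**Figure D4:**
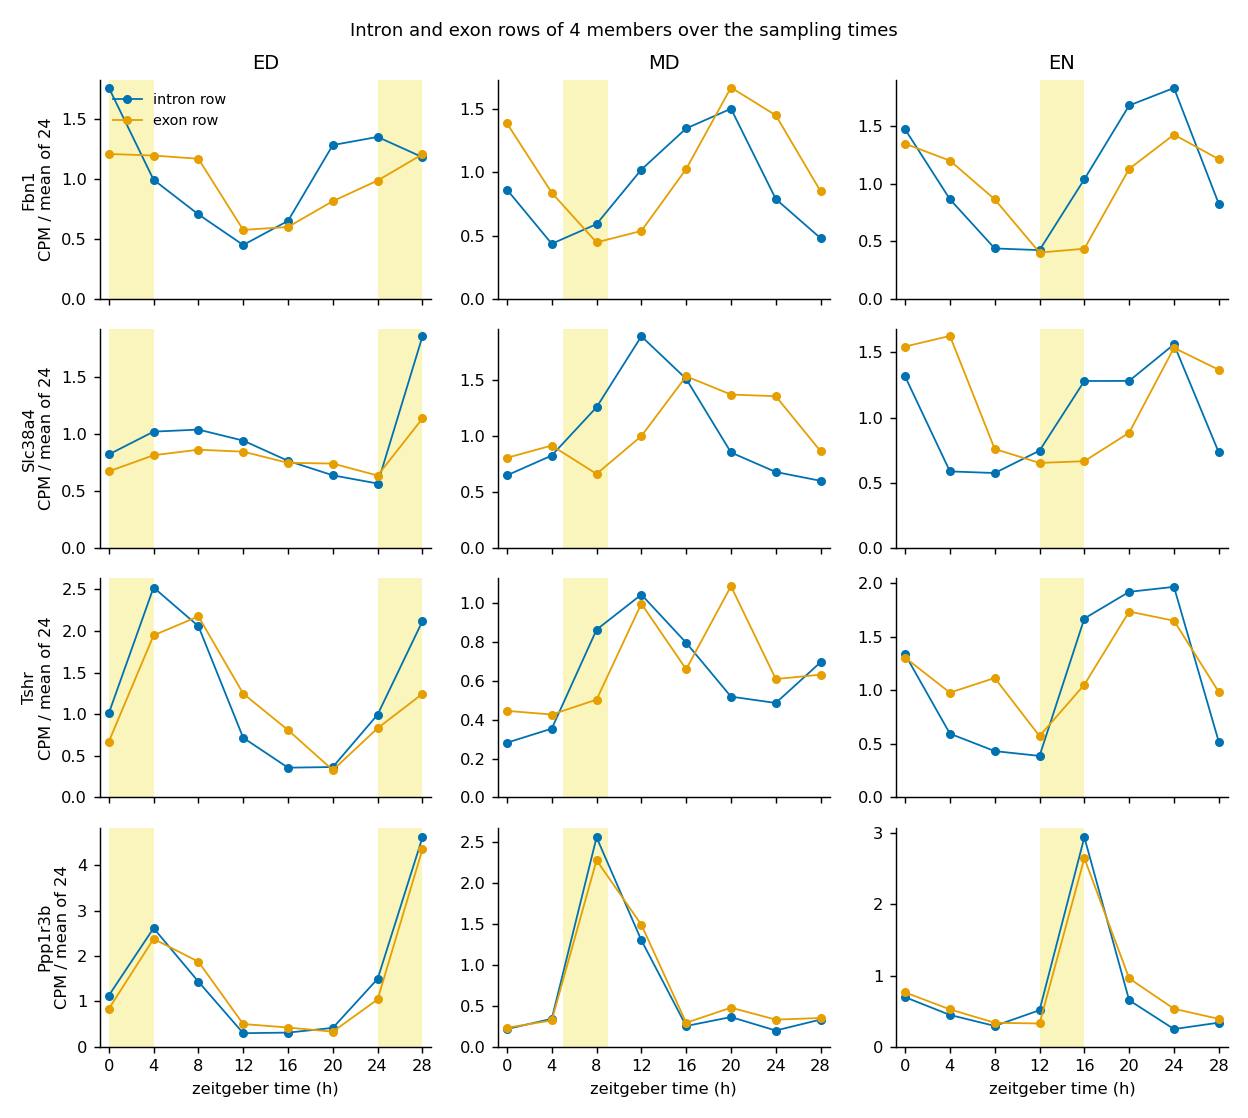
Intron (blue) and exon (orange) rows of 4 rhythmic members by sampling time in each feeding group, as CPM divided by the mean of the 24 libraries. Yellow marks the hours of food. The Fbn1 intron peak comes 3.48 to 3.95 h before the exon peak in all 3 groups, and the Tshr intron peak moves from ZT5.51 in ED to ZT11.9 in MD and ZT20.4 in EN.

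Of the members named here, the intron rhythm of Fbn1 had the lowest adjusted p (edgeR, 1.7e-09 for any group). Fbn1 encodes fibrillin-1, the scaffold of elastic microfibrils in the dermis (chr2:125300594-125507993, minus strand, 195272 bases of intron). Its intron levels ran from a lowest of 199.9 to a highest of 784 CPM in ED, from 193 to 668 in MD and from 188 to 813 in EN, with medians of 484, 367 and 422. The groups thus covered like ranges, and the time of the peak set them apart: ZT23.8 in ED, ZT17.4 in MD and ZT21.7 in EN. The amplitude on the log2 scale was 0.85 ± 0.08, 0.88 ± 0.08 and 1.12 ± 0.08 (SE; edgeR adjusted p = 5.9e-06, 2.7e-06 and 9.1e-08). MD differed from ED (edgeR adjusted p = 9.7e-07) and EN from MD (1.7e-05), while EN against ED did not pass (0.059). Rnf144a, an E3 ubiquitin ligase, had the same order of peaks, at ZT0.060, ZT18.8 and ZT21.9. Eln, the elastin gene, was also rhythmic in introns and exons (edgeR adjusted p = 2.6e-06 and 0.0041).

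Other members peaked in the order of the meals. Tshr introns peaked at ZT5.51 ± 0.41 in ED, ZT11.9 ± 0.85 in MD and ZT20.4 ± 0.44 in EN (SE), and all 3 differences between groups were called (edgeR adjusted p = 0.0002, 1.3e-06 and 0.00016 for MD against ED, EN against ED and EN against MD). Ppp1r3b introns peaked at ZT3.97, ZT10.0 and ZT16.7, with amplitudes of 1.77, 1.46 and 1.06 on the log2 scale, given as a description. Pnpla3, a lipid droplet acyltransferase and lipase, peaked at ZT5.20, ZT11.5 and ZT17.5, and was called in MD alone (edgeR adjusted p = 0.0067). Of the mitosis list, 7 of 14 members were rhythmic in introns and 13 in exons (backgrounds of 2.39% and 2.64%), among them Nusap1, a spindle protein, and Cenpf, a kinetochore protein, both called in introns in ED alone (amplitudes of 1.06 and 1.01, edgeR adjusted p = 0.00068 and 0.009). Nusap1, Cenpf and Dlgap5, another spindle gene, had their highest ED intron level in ED ZT24 (13.01, 19.1 and 13.5 CPM), a pool with high follicle markers. Without ED ZT24 and EN ZT0 the counts were 6 in introns and 9 in exons, and the intron rhythms of Nusap1 and Cenpf still passed (edgeR adjusted p = 0.020 and 0.048 for any group), while that of Dlgap5 did not (0.066). The 7 became 4 without ED ZT8 or ED ZT12, and Cenpf was lost without ED ZT12 (0.051) and without the second day (0.057).

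Where both rows were rhythmic, the delay of the exon peak behind the intron peak was measured. Of 102 members with a called rhythm in both rows (background 0.928% of the rows tested in both), the exon peak came a median of 1.09 h after the intron peak, with quartiles of 0.536 and 1.92 h and a range from -1.73 to 4.90 h. The delay was positive in 88 of 102 and exceeded 2 standard errors in 56, and 1 was below minus 2 standard errors. For 16 core clock genes the median was 0.875 h, from 0.191 to 1.44 h. The exon amplitude was the smaller in 68 of 102 members, with a median ratio of 0.938 to the intron amplitude. By length of the gene, the median delay was 1.09, 1.04 and 1.18 h from the shortest to the longest genes. By group, ED had a median of 0.661 h over 20 members, MD of 0.958 h over 16 and EN of 1.88 h over 34, each over the members called in both rows of that group.

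**Figure D5:**
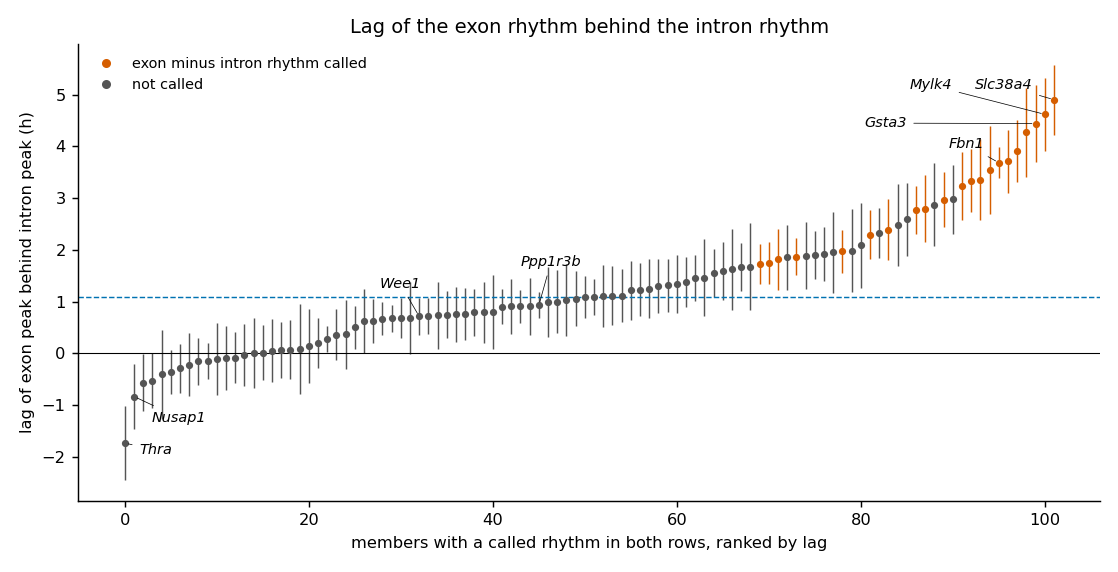
Delay of the exon peak behind the intron peak in hours for the 102 members with a called rhythm in both rows, ranked, with bars of 1 standard error. Orange marks the 21 whose exon and intron rhythms were called different and the dashed line is the median of 1.09 h. Slc38a4 has the longest delay, 4.90 h, and Thra the most negative, -1.73 h.

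Long delays singled out named genes. The rhythms of the 2 rows were called different in 79 members (background 0.701%), or 129 without MD ZT8, and in the 21 of them with a rhythm in both rows the median delay was 3.24 h, from 1.73 to 4.90 h. The Fbn1 exon peak followed by 3.48 ± 0.72 h (ED), 3.95 ± 0.49 h (MD) and 3.53 ± 0.46 h (EN), with a mean of 3.69 ± 0.30 h (SE). Slc38a4 had the longest mean delay, 4.90 ± 0.68 h, from 5.65 h in MD and 5.52 h in EN against 0.933 ± 1.6 h in ED, where neither row was called. Mylk4, a kinase of the myosin light chain kinase family, followed with 4.62 ± 0.70 h and Gsta3 with 4.44 ± 0.74 h. For Mylk4 this came from 4.82 h in MD and 4.38 h in EN, against 10.7 ± 5.87 h in ED. For Gsta3 it came from 3.61 h in MD and 4.17 h in EN, against -11.3 ± 2.21 h in ED. These means are weighted by precision and rest mostly on MD and EN. The intron rhythm of Gsta3 was lost without EN ZT12 (edgeR adjusted p = 0.078). Without the second day the intron rhythms of Gsta3, Mylk4 and Wee1 did not pass (edgeR adjusted p = 0.12, 0.083 and 0.096), and with limma on the difference of log2 CPM the rhythm difference of Gsta3 did not (0.076). The shortest delays were those of Thra, Nusap1 and Dlgap5, at -1.73 ± 0.71, -0.83 ± 0.63 and -0.56 ± 0.55 h. Among the members with the most precise delays, Ppp1r3b was delayed by 0.93 ± 0.25 h, Rnf144a by 0.68 ± 0.26 h and Lonrf3 by 0.28 ± 0.26 h. Wee1, a cell cycle kinase under clock control, was delayed by 0.71 ± 0.35 h.

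Rhythms of exons without a call in introns, with the difference called, were found in 15 members (background 0.131%), and the reverse in 17 (background 0.139%). Cirbp was among the first, with an exon amplitude of 0.86 in MD and a peak at ZT0.55 (edgeR adjusted p = 0.0018), against an intron amplitude of 0.30 (0.19). Prkar2b, a regulatory subunit of protein kinase A, had a called exon rhythm (edgeR adjusted p = 0.0072) with 0.13 in introns and 0.00034 for the difference. Slc7a10 was among the 17, with an intron rhythm (edgeR adjusted p = 0.015), 0.11 in exons and 0.00028 for the difference. The rhythm difference of Cirbp was lost without the second day (edgeR adjusted p = 0.13) and with limma on the difference of log2 CPM (0.061), and the intron rhythm of Slc7a10 was lost without the second day (edgeR, 0.074). Of the 79, 26 were called in neither row and 21 in both.

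Longer and deeper intron rows were called more often. Across 5 equal parts of the members by intron length, the share with a food response in introns went from 5.90% in the shortest (up to 9220 bases) to 14.01% in the longest (from 84232 bases), and across 5 equal parts by summed intron count from 6.01% to 12.9%. The share with an intron rhythm went from 1.51% to 4.57% by length. The median residual SD on the log2 scale was 0.26 in the fifth with the fewest counts and 0.10 in the fifth with the most, so small changes in shallow rows were not detectable at this depth. Members with a small RNA gene inside had 18 food calls among 254, and those overlapping another long gene on the same strand had 43 among 695, or 7.09% and 6.19% against 9.68% of all members, and reads of overlapping genes cannot be assigned to 1 gene.

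The promoters of the members that changed are described only by the letters they hold. Among 336 promoters of members higher after food in introns, 129 held CCAAT, and among 448 of members lower after food, 155 did. These shares were 38.4% and 34.6%, against 34.5% of all promoters and 35.3% of member promoters. CACGTG was in 8.04% and 8.93% of the 2 sets, against 6.05% of all promoters and 8.45% of member promoters. The endoplasmic reticulum stress element was in 5 of the 336 and 1 of the 448, against 0.122% of all promoters and 0.157% of member promoters. A match says only that these letters are in the window.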

How the data were processed

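RNA of whole back skin was measured in 24 libraries of 3 feeding groups, each a pool of 2 to 4 mice per the series' design text, made with a stranded kit per the labels' protocols. The deposited table gives raw read counts for the exon, intron and antisense rows of each gene model, per the file headers. The submitters' processing notes name TopHat2, SAMtools, HOMER and mm10 with no version, and the counting program and its treatment of reads with several matches were not given in the sources read for this work. The deposited RPKM values, adjusted by the authors with cqn per the file name, served as an alternative. Intron totals per library lay between 7768854 and 17796013.

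Rows were kept with filterByExpr of edgeR 4.0.16 by group (minimum count 10, minimum total 15) and scaled by TMM, intron and exon rows separately. Quasi-likelihood F tests ran on all rows, with Benjamini-Hochberg adjustment over all of them and a threshold of 0.05. The rhythm model held, per group, a level and the 2 terms of a 24 h cosine (15 residual degrees of freedom). The food model held the group, 6 times of day and 3 classes of hours since food (14 residual degrees of freedom). Exon and intron columns were joined in a model of 48 columns with the library as a block. Lags are differences of fitted peak times on log2 CPM (prior count 2), with delta-method standard errors. Changes after food are edgeR estimates, and the standard errors beside them come from least squares on log2 CPM (prior count 2). The intron share was compared by exact permutation tests. The fits were tested on simulated data. Alternatives used DESeq2 1.42.0, limma 3.58.1 (R 4.3.3), log2(RPKM + 0.1), other scalings, filters and thresholds, and left-out libraries. Leaving out libraries in the tests of the intron share was chosen after seeing the data.

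The members and lists were chosen with earlier results of these data known. Named genes were, by rule, those with the largest intron amplitudes, the largest food responses of 1 sign in all groups, the most precise, longest and shortest lags, the largest changes in 1 row type only, and members of the lists. Coordinates and intron lengths come from GENCODE on GRCm38, matched by symbol for 11279 of 11555 members. Some genes are not reported here. RefSeq promoters were matched for 37 of the 60 named genes.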

Additional observations from a re-analysis of the deposited data

Results flagged for a closer look

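The sets of values read here were mostly intron rows of genes named for large changes in these same libraries, so no chance rate was set against them. Within a feeding group of 8 libraries, 1 library stood far from the other 7 in 20 of 183 sets (10.9%). A group of 5 of these fell in ED ZT28, the ED library taken 4 h after food was opened on the second day: the intron rows of 1500017E21Rik (29.0 CPM, next library 15.9), Ampd1 (67.6, next 33.0), Ckmt2 (37.6, next 18.7), Slc38a4 (26.6, next 14.9) and the gene model labelled miR-133 (29.9, next 13.5) were highest there. The intron food calls of Ampd1, Ckmt2, Slc38a4 and 1500017E21Rik held without that library. The exon row of Ampd1, a muscle gene, was also highest there among the ED libraries (124 CPM, next 77.2). Whether this pool held more muscle was not tested. Npr3 was high in ED ZT16 (54.9 CPM) and Dlgap5 in ED ZT24 (13.5).

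In EN ZT12, taken as food was opened, 7 intron rows stood above the other 7 EN libraries. Of these, 4 are in the glucocorticoid list: Fkbp5 (1221 CPM, next 416), Tsc22d3 (839, next 306), Zbtb16 (4025, next 1587) and Mt1 (49.9, next 18.0). The other 3 were Gsta3 (66.0 CPM, next 20.1), Thrsp (20.5, next 11.9) and the gene model AK154552 (62.996, next 31.3). Ppp1r3b was high in EN ZT16 (13.02 CPM) and Slc9a2 in EN ZT0 (9.99). The total intron count of EN ZT20 was 16280522, against 10949421 in the next EN library.

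In MD, Peg3 was high in ZT16 (126 CPM, next 75.9), Ppp1r3b was high in ZT8 (11.3, next 5.75) and Htra3 was low in ZT8 (75.1, next 104). The intron rhythm differed between feeding groups by a test of the difference itself in 46 members for MD against ED, 11 for EN against ED and 26 for EN against MD.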

How the results depend on the processing

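No named value changed sign past a threshold in the alternatives run. DESeq2 called more rhythms, with 1000 members in introns in any group (ED 231, MD 335, EN 277), 986 in exons, and 226, 91 and 143 for MD against ED, EN against ED and EN against MD. With intron rows on the exon scaling there were 470 intron rhythms (ED 1130, EN 51), 29 differences of EN against ED and 114 differences of food response between rows. Limma on the difference of log2 CPM called 64 members for food and 18 for rhythm. Without the second day, which leaves fewer libraries, there were 696 intron and 300 exon food responses, 130 differences between rows, 98 intron rhythms (ED 10, EN 28), 94 exon rhythms, 32 rhythm differences between rows, and 11 and 6 for MD and EN against ED. Without ED ZT24 and EN ZT0, intron rhythms were 164 (ED 25, EN 43) and EN against MD 15. The groups share only sampling times, and with the sampling time as a replicate block the rhythm differences were 62, 22 and 54.

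Leaving out 1 library at a time gave 629 to 1432 intron and 240 to 832 exon food responses, 92 to 232 differences between rows, 153 to 503 intron rhythms (ED 14 to 86, MD 42 to 170, EN 27 to 205), 157 to 348 exon rhythms, 56 to 129 rhythm differences between rows, and 21 to 126, 3 to 39 and 9 to 53 for MD against ED, EN against ED and EN against MD. Leaving out 1 sampling time in all groups at once, the median lag stayed between 0.991 and 1.14 h. The intron share, also without 1 sampling time, differed by 0.717 to 2.02, -2.98 to -1.73 and -4.28 to -3.15 percentage points for the same pairs. EN against ED reached p = 0.0313 without ZT8 by the exact permutation test, unadjusted. After against before food the intron share differed by -1.60 points (exact permutation p = 0.181). Without single libraries this ran from -2.15 to -1.04, with an exact permutation p of 0.0433 without EN ZT12, at -2.13. Thresholds of 600 and 2400 counts, other size factors, no filter and RPKM with limma kept every count of members within 1.5 times. For the counts that moved, the cause was not tested. Pooled RNA and 1 pool per time limit all tests, and rows with few counts hide small changes.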
